A study of Homo sapiens with 12 samples.

Results

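The genes that encode the insulin-like growth factor binding proteins, the insulin and IGF receptors and the main receptor substrates were followed in RNA-Seq data of 2 experiments built to silence or overexpress MUC1 in prostate cancer cells. The 10 genes, out of 28008 listed in the silencing experiment and 25435 in the overexpression experiment, were chosen by symbol: IGFBP2, IGFBP3, IGFBP4, IGFBP5 and IGFBP6 (binding proteins), IGF1R, IGF2R and INSR (receptors), and IRS1 and IRS2 (substrates). The choice was made with results of both comparisons known, so their differences are described without a test. LNCaP is an androgen receptor-positive human prostate cancer cell line. In the silencing experiment, LNCaP-ER/tet-MUC1shRNA cells, made resistant to the androgen receptor antagonist enzalutamide by growth in increasing concentrations of the drug and carrying a DOX-inducible MUC1 shRNA with puromycin selection, received vehicle (DMSO) or DOX at 500 ng/mL over 7 days. In the overexpression experiment, cells labelled LNCaP were compared with cells labelled LNCaP/MUC1-C OE, which carry a lentiviral vector for the C-terminal subunit of MUC1. The labels call the first of these groups wild-type, while the count columns call it vector. The titles of the second group's samples carry shMUC1-C before OE, while their MUC1 counts were high, as given with the library depths. Each group had 3 libraries. The study cultured cells in triplicate, and nothing used here says that the cultures were independent, so the spread between libraries may be technical.

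The IGF system controls growth and survival through secreted ligands, IGF1 and IGF2, that activate the tyrosine kinase receptors IGF1R and INSR. The activated receptors phosphorylate the docking proteins IRS1 and IRS2, which recruit PI3K and pass the signal to AKT. The IGF binding proteins hold the ligands outside the cell, and they can keep them from the receptors or release them after cleavage by proteases. IGF2R, also known as the cation-independent mannose-6-phosphate receptor, has no kinase, removes IGF2 from the cell surface and sorts enzymes to lysosomes. In the prostate, IGF binding proteins are made by epithelial and stromal cells, and IGFBP3 is a known substrate of the luminal protease KLK3.

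The promoters of IGFBP3, IGFBP5, IGF1R and IGF2R, the 4 members with a higher level under the DOX label than in vehicle, are shown because they differ in base composition and start-site elements. Each sequence is the 250 bases before the RefSeq gene start on GRCh38.p14, read 5′ to 3′ on the gene's strand, in lower case. Capitals mark the GC box GGGCGG or its reverse complement CCGCCC, and the TATA motif TATANA or its reverse complement TNTATA.
IGFBP3: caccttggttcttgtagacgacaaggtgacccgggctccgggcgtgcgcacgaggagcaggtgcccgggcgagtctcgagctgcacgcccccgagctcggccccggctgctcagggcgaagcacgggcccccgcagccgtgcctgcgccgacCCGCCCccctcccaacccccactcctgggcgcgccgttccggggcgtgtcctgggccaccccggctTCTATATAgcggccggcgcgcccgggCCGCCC
IGFBP5: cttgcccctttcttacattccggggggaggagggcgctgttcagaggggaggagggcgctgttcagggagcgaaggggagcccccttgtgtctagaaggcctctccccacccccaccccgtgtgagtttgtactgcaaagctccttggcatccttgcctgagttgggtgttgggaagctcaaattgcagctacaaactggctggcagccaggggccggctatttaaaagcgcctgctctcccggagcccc
IGF1R: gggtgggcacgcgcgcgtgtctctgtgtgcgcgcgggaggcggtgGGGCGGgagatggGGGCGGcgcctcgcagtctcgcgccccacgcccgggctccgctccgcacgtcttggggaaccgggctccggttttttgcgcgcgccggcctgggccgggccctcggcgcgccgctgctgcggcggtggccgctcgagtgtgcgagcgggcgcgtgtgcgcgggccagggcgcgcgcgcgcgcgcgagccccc
IGF2R: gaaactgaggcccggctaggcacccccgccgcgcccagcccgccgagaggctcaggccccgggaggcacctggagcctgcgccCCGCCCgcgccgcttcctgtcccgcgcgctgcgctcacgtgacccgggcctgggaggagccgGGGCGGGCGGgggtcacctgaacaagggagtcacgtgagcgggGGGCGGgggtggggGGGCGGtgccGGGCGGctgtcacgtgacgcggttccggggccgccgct
These windows lie at chr7:45921273-45921522 (minus strand, IGFBP3), chr2:216695550-216695799 (minus strand, IGFBP5), chr15:98648289-98648538 (plus strand, IGF1R) and chr6:159968832-159969081 (plus strand, IGF2R), directly upstream of the first exon. The genes themselves span chr7:45912245-45921272, chr2:216672105-216695549, chr15:98648539-98964530 and chr6:159969082-160111504.

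IGF1R had the window richest in G and C, with 81.2% GC, 48 CpG and 2 GC boxes, and no TATA match. IGF2R had 79.2% GC, 6 GC boxes counted with overlaps, and 3 copies of the E-box CACGTG at 132, 74 and 28 bases before the start. IGFBP3 had 76.0% GC and 32 CpG together with overlapping TATA matches at 32 and 30 bases before the start. IGFBP5 had 61.2% GC and 8 CpG and held none of the motifs searched. Its window has the stretch tatttaaaa close to the start, which the pattern TATANA does not match. Across all 10 members, 7 windows were above 68.0% GC, the upper quartile of the 35116 RefSeq windows of this length, whose median was 58.0%. Each member was counted at its gene start only. The 35116 windows also include further starts of the same gene, such as those of IGFBP2, so the 2 sets are not alike. A GC box was present in 9 of the 10 members against 42.6% of all windows, and a TATA match in 2 (IGFBP3 and IGFBP4) against 17.7%. The E-box was in 1 member (IGF2R) against 6.34% of windows, the FOXO motif TGTTTAC in 1 (IGFBP6) against 2.98%, and the androgen receptor half-site AGAACA in 1 (IGFBP2) against 12.4%, each searched on both strands. A motif match is a description of the letters and not a bound site.

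Library depth was 28045894 to 45807989 counts in the silencing experiment and 13806856 to 19208944 in the overexpression experiment. Reads on MUC1, against which the shRNA is directed, numbered 26, 10 and 13 with vehicle (replicates 1, 2 and 3) as opposed to 3, 42 and 8 under the DOX label (log2 difference 0.12, SE 0.93, edgeR adjusted p = 0.93). By these few reads DOX replicate 2 went against its label. It also stood apart in having 11.2% of listed genes at 0 against 27.95% to 38.1% in the other libraries of that experiment. Whether its MUC1 count shared in that was not tested. Vehicle replicate 1 differed from its group as well. The chi-square per degree of freedom between counts was 51.8 and 51.4 against vehicle replicates 2 and 3. It was 5.70 between those replicates and 26.9 to 69.1 between DOX libraries. MUC1 rose from 25 to 31 counts in the libraries labelled LNCaP to 9168 to 12622 in those labelled LNCaP/MUC1-C OE (log2 difference 8.91, SE 0.12, edgeR adjusted p = 2.77e-16). The 12 luminal prostate markers summed to 6409 to 7175 CPM (counts normalised to library size) in vehicle and 7129 to 7636 CPM in the libraries labelled DOX. They summed to 406 to 429 CPM in the libraries labelled LNCaP and to 99.3 to 111 CPM in those labelled LNCaP/MUC1-C OE, where KLK3, KLK2 and FOLH1 were at 0 in every library. The 2 tables were normalised separately, and the overexpression libraries went against the LNCaP label on the markers that define it, and they are named by their labels throughout.

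In the silencing experiment, 5 of the 8 members that passed the filter on low counts were past the threshold of edgeR's quasi-likelihood test (adjusted p under 0.05), with 4 higher (IGFBP3, IGFBP5, IGF1R and IGF2R) and 1 lower (IGFBP2) in the libraries labelled DOX. Of all 14683 genes tested, 27.3% were past it, 12.8% higher and 14.5% lower. The same 5 members did not overlap between groups, as did 44.3% of all genes tested, 21.2% higher and 23.0% lower. The median log2 difference was 0.11 over the 8 members and -0.02 over all genes. Since the members were chosen with this comparison in view, these counts are given as a description. IGFBP5 passed the filter only through the libraries labelled DOX, where it was higher, so its direction followed from the filter. It was not tested when 10 counts were required in every library. In bulk RNA-Seq, fewer cells of a kind and less RNA per cell cannot be told apart.

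**Figure D1:**
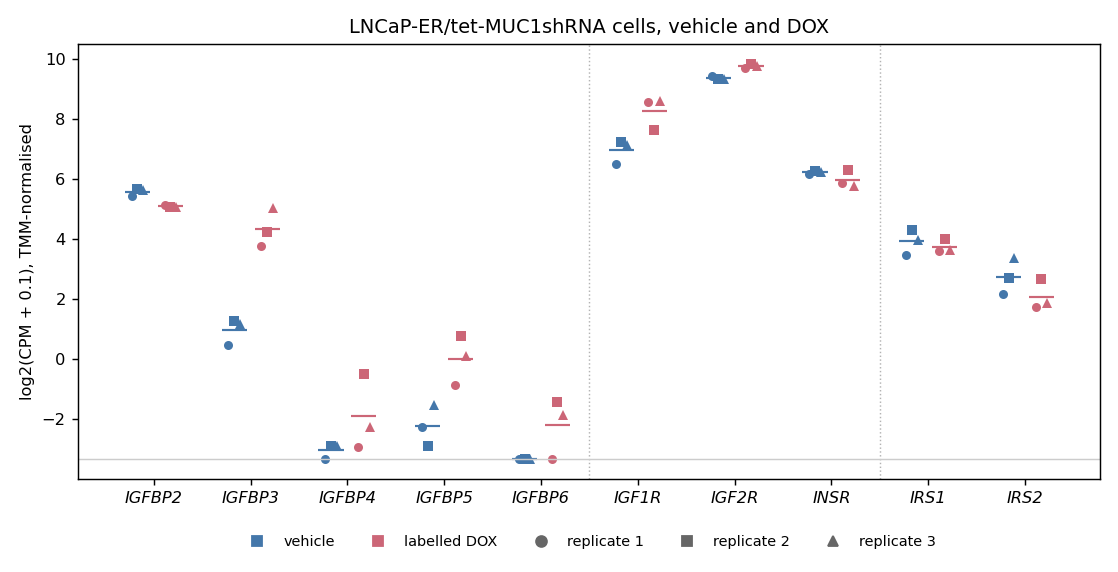
Levels of the 10 members in each library of the silencing experiment, as log2(CPM + 0.1) on the vertical axis, with vehicle in blue, libraries labelled DOX in red, a symbol per replicate and a line at the mean of each group's 3 values. IGFBP3 and IGF1R stand higher in all 3 libraries labelled DOX, while INSR, IRS1 and IRS2 overlap between the groups. The grey line marks a count of 0.

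IGFBP3, the main carrier of IGF in the circulation, showed the largest difference of the members. It was at 1.28, 2.28 and 2.13 CPM in vehicle replicates 1, 2 and 3 and at 13.6, 18.8 and 32.3 CPM in the libraries labelled DOX. All 3 DOX libraries were above all 3 vehicle libraries, and the lowest and highest of them were more than a factor of 2 apart. The fitted difference was 11.5-fold (log2 difference 3.52, SE 0.36), and it was 3.65 on the log2 scale without DOX replicate 2.

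IGFBP2, a binding protein made by many carcinomas, went the other way. It was at 42.5, 50.4 and 48.8 CPM in vehicle and at 34.6, 33.4 and 33.1 CPM in the libraries labelled DOX, without overlap. The level in vehicle was 1.40-fold that in the libraries labelled DOX (log2 difference -0.49, SE 0.10). On the deposited TPM values the difference was 0.07, where all genes had a median of 0.45, so that IGFBP2 turned its sign there and stayed below that median (-0.38 relative to it). IGFBP2 and IGFBP5 are neighbours on chromosome 2 and differed in opposite directions.

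IGFBP5, which binds IGFs with high affinity and attaches to extracellular matrix, was barely detected. Its counts were 4, 1 and 7 in vehicle and 15, 48 and 45 in the libraries labelled DOX, or 0.11, 0.03 and 0.25 CPM against 0.45, 1.62 and 0.97 CPM. The DOX libraries were all higher, at a level that remained near 1 CPM. The fitted log2 difference was 2.95 (SE 0.77), 2.51 without DOX replicate 2 and 3.73 without vehicle replicate 3. IGFBP5 was no longer past the threshold without vehicle replicate 1 (log2 difference 2.81), without vehicle replicate 2 (2.505) or without DOX replicate 3 (2.97).

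IGFBP4 and IGFBP6 were too low to be tested. IGFBP4, an inhibitory binding protein that is cleaved by the protease PAPPA, had 0, 1 and 1 counts in vehicle and 1, 18 and 5 in the libraries labelled DOX, a ratio of 10.9 with a 95% counting interval of 2.72 to 95.5. IGFBP6, which prefers IGF2, had no counts in vehicle and 0, 8 and 8 in the libraries labelled DOX, so that DOX replicate 1 was level with vehicle. Against a floor of 3 counts over the vehicle group the pooled ratio was 4.86. That ratio takes the 16 DOX counts as exact and leaves out the spread between libraries, so it is not a lower bound. DOX replicate 2 held 18 of the 24 IGFBP4 counts in the DOX group and 8 of the 16 IGFBP6 counts. It also held the most counts of INSRR (66) and IGFBP1 (19), and it was the library with the fewest genes at 0, whose part in these low values was not tested.

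Among the receptors, IGF1R showed the largest difference. It was at 89.5, 148 and 140 CPM in vehicle and at 379, 197 and 380 CPM in the libraries labelled DOX. The groups did not overlap, but DOX replicate 2 was nearer to vehicle replicates 2 and 3 than to the other two DOX libraries. The fitted difference was 2.53-fold (log2 difference 1.34, SE 0.27). It was 1.62 on the log2 scale without DOX replicate 2, and IGF1R was not past the threshold with the replicate number as a block (1.31) or when no filter on low counts was used (1.35).

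IGF2R, the most abundant of the members by CPM in this experiment, differed less but with little spread. It was at 680, 634 and 635 CPM in vehicle and at 826, 908 and 868 CPM in the libraries labelled DOX, a 1.33-fold difference (log2 difference 0.42, SE 0.09). The groups did not overlap, and DOX replicate 2 was the highest library. IGF2R was no longer past the threshold without vehicle replicate 2 (0.39), vehicle replicate 3 (0.39) or DOX replicate 3 (0.41), with nearly the same difference.

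INSR, the insulin receptor, overlapped between the groups, at 71.7, 77.2 and 74.6 CPM in vehicle and 57.4, 78.2 and 54.6 CPM in the libraries labelled DOX. DOX replicate 2 was at the vehicle level and the other two DOX libraries were below it. The log2 difference was -0.23 (SE 0.14), and INSR was past the threshold without DOX replicate 2, at -0.38. On the TPM scale INSR was at 0.27, which is -0.18 relative to the median of all genes.

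IRS1 and IRS2, the docking proteins of both receptors, also overlapped. IRS1 was at 10.9, 19.7 and 15.6 CPM in vehicle and 12.1, 15.8 and 12.3 CPM in the libraries labelled DOX (log2 difference -0.20, SE 0.22), and the difference was 0.01 without vehicle replicate 2 and 0.22 on the TPM scale, -0.23 relative to the median there. IRS2 was at 4.33, 6.39 and 10.3 CPM against 3.21, 6.20 and 3.51 CPM (log2 difference -0.70, SE 0.36). The vehicle libraries of IRS2 spanned more than the difference between the groups.

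The ratio of IGF1R to INSR within a library does not depend on the scaling between libraries. Computed from the deposited TPM values, which are levels per transcript length, it was 0.948, 1.46 and 1.42 in vehicle and 5.01, 1.91 and 5.29 in the libraries labelled DOX. All 3 DOX libraries were higher, and DOX replicate 2 was again closest to vehicle. The ratio of IGF2R to IGF1R was 6.60, 3.71 and 3.94 in vehicle and 1.90, 4.003 and 1.98 in the libraries labelled DOX, with overlap through DOX replicate 2. The ratio of IRS2 to IRS1 was 0.409 to 0.831 in vehicle and 0.335 to 0.493 in the libraries labelled DOX, with overlap.

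The ligands set the context for these receptors. IGF1 was expressed in the silencing experiment, at 14.6, 27.6 and 32.1 CPM in vehicle and 23.7, 19.9 and 18.4 CPM in the libraries labelled DOX, and it did not pass the test (log2 difference -0.26, SE 0.26, edgeR adjusted p = 0.49). The difference was -0.54 without vehicle replicate 1, where it passed (edgeR adjusted p = 0.038), and 0.24 on the TPM scale. IGF2 had 0, 0 and 1 counts in vehicle and 0, 12 and 2 in the libraries labelled DOX, and INS had 1 count in all, in DOX replicate 2. The IGF1R homologue INSRR had no counts in vehicle and 6, 66 and 1 in the libraries labelled DOX. Of the other binding proteins, IGFBP1 had 2, 0 and 0 counts against 1, 19 and 0, IGFBP7 had none against 0, 4 and 1, and IGFBPL1 had 20, 3 and 15 against 1, 15 and 3. IGFALS, which forms the circulating complex with IGFBP3, had 2, 2 and 0 counts against 0, 7 and 1.

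In the overexpression experiment, all 10 members passed the filter and 9 were past the threshold, 3 higher (IGFBP5, IGF1R and IGF2R) and 6 lower (IGFBP2, IGFBP3, IGFBP4, IGFBP6, IRS1 and IRS2) in the libraries labelled LNCaP/MUC1-C OE. Of all 13836 genes tested, 67.3% were past it, 33.2% higher and 34.1% lower. The same 9 members did not overlap between the groups, as did 70.3% of all genes, 34.4% higher and 35.9% lower. The median log2 difference was -0.60 over the members and -0.01 over all genes. IGFBP3, IGFBP4 and IGFBP6 passed the filter through the libraries labelled LNCaP, where they were higher, so their direction followed from the filter. That median of the members includes them. With 10 counts required in every library they were not tested, and 6 members were past the threshold. Scaling by library size only moved the median of all genes to -0.16 and left 32.3% of called genes higher, against 49.4% with TMM.

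**Figure D2:**
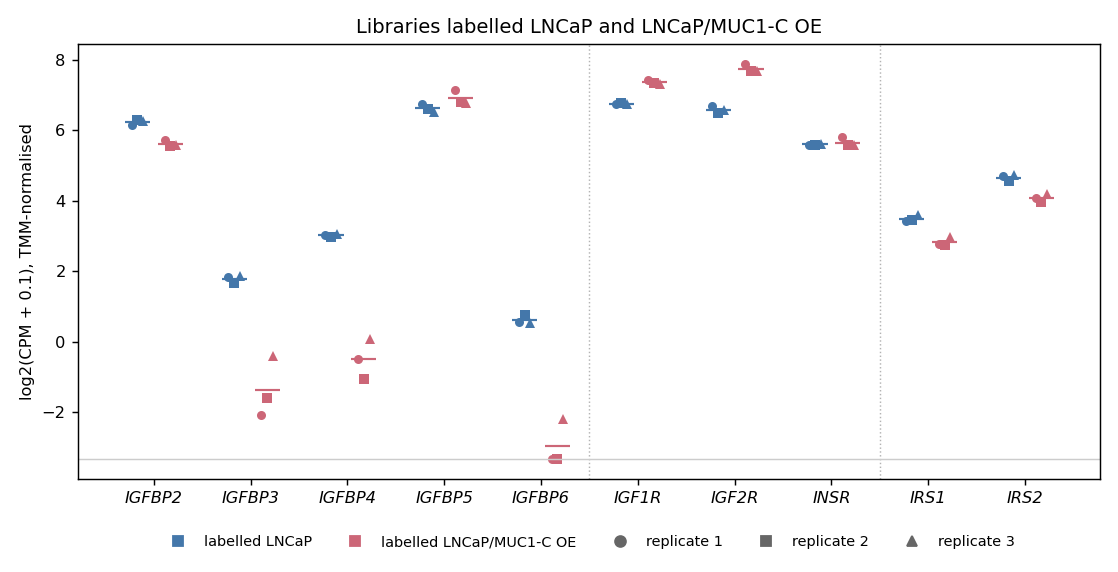
Levels of the 10 members in each library of the overexpression experiment, as log2(CPM + 0.1) on the vertical axis, with libraries labelled LNCaP in blue, libraries labelled LNCaP/MUC1-C OE in red, a symbol per replicate and a line at the mean of each group's 3 values. IGFBP3, IGFBP4 and IGFBP6 stand below 1 CPM in the libraries labelled LNCaP/MUC1-C OE (the grey line marks a count of 0), while IGF1R and IGF2R stand higher in all 3 libraries labelled LNCaP/MUC1-C OE.

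The binding proteins separated into low and abundant genes. IGFBP3 was at 3.50, 3.06 and 3.53 CPM in the libraries labelled LNCaP and at 0.14, 0.23 and 0.66 CPM in those labelled LNCaP/MUC1-C OE (counts of 71, 58 and 68 against 2, 3 and 11). The level in the LNCaP group was 9.24-fold that in the other group (log2 difference -3.21, SE 0.33), and the log2 difference was -4.17 without LNCaP/MUC1-C OE replicate 3. IGFBP3 differed in opposite directions in the 2 experiments, which do not share libraries. The other members named as different in both (IGFBP2, IGFBP5, IGF1R and IGF2R) differed in the same direction on the CPM scale. IGFBP2 turned its sign on the TPM scale, as above. The direction of IGFBP3 in the overexpression experiment and of IGFBP5 in the silencing experiment followed from the filter. For these 2 genes nothing is read from the directions being opposite or the same.

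IGFBP4 was at 8.03, 7.81 and 8.31 CPM in the libraries labelled LNCaP and at 0.61, 0.38 and 0.96 CPM in those labelled LNCaP/MUC1-C OE. The groups were 11.9-fold apart (log2 difference -3.57, SE 0.22), with little spread within the first. IGFBP6 had 28, 30 and 26 counts in the libraries labelled LNCaP and 0, 0 and 2 in the others, a ratio of 35.6 with a 95% counting interval of 9.55 to 299. IGFBP7, a distant relative that binds IGFs weakly, had 36, 41 and 41 counts against 0, 1 and 5. It too passed the filter only through the libraries labelled LNCaP, so its direction followed from the filter. The fitted log2 difference of IGFBP7 was -3.84 (SE 0.46). Leaving out 1 library gave -5.54 (without LNCaP/MUC1-C OE replicate 3) to -3.28.

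The luminal marker list moved with these low binding proteins. Its summed level was 406 to 429 CPM in the libraries labelled LNCaP and 99.3 to 111 CPM in those labelled LNCaP/MUC1-C OE, with 3 of 12 markers at 0 in every library of the second group and none in the first. The mesenchymal list of 15 genes summed to 954 to 999 CPM and 1443 to 1553 CPM in the same groups, with VIM, an intermediate filament protein, at 435 to 480 CPM and 1242 to 1339 CPM. Its members went both ways: SPARC, a matrix protein, averaged 299 CPM in the first group and 3.97 CPM in the second (edgeR adjusted p = 7.26e-17), and ACTA2, AXL and LUM also fell. The part of these markers in the differences of the members was not tested.

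IGFBP2 was at 70.4, 78.6 and 76.8 CPM in the libraries labelled LNCaP and at 52.4, 46.6 and 47.5 CPM in those labelled LNCaP/MUC1-C OE. The first group was 1.54-fold the second, without overlap (log2 difference -0.62, SE 0.06). IGFBP5 was abundant here, at 107, 97.9 and 91.9 CPM against 142, 111 and 110 CPM. Its difference was small (log2 difference 0.29, SE 0.10), and it was not past the threshold with library size only (0.14), without LNCaP replicate 2 or without LNCaP replicate 3.

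Both IGF receptors were higher in the libraries labelled LNCaP/MUC1-C OE. IGF1R was at 108, 109 and 108 CPM in the libraries labelled LNCaP and at 171, 164 and 158 CPM in those labelled LNCaP/MUC1-C OE, a 1.52-fold difference (log2 difference 0.60, SE 0.05). IGF2R was at 103, 89.5 and 94.5 CPM against 237, 206 and 205 CPM, a 2.26-fold difference (log2 difference 1.18, SE 0.06). INSR was at 48.3, 47.8 and 49.0 CPM against 55.7, 47.7 and 47.4 CPM, with overlap (log2 difference 0.06, SE 0.07, and -0.10 with library size only).

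IRS1 and IRS2 were both lower. IRS1 was at 10.6, 10.8 and 12.1 CPM in the libraries labelled LNCaP and at 6.76, 6.65 and 7.83 CPM in those labelled LNCaP/MUC1-C OE (log2 difference -0.65, SE 0.12). IRS2 was at 25.8, 23.3 and 26.3 CPM against 17.0, 15.5 and 18.1 CPM (log2 difference -0.57, SE 0.09). IRS4, another docking protein of the family, was far more abundant than both, at 568 to 592 CPM in the libraries labelled LNCaP and 835 to 892 CPM in the others (log2 difference 0.55, edgeR adjusted p = 5.89e-09). In the silencing experiment IRS4 had 0, 16 and 15 counts in vehicle and 5, 5 and 2 in the libraries labelled DOX, and it was named after its values were seen.

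Of the ligands in this experiment, IGF1 had 35, 10 and 13 counts in the libraries labelled LNCaP and 0, 0 and 1 in those labelled LNCaP/MUC1-C OE, a ratio of 49.2 with a 95% counting interval of 8.48 to 1975. IGF2 had 5, 11 and 7 counts against 13, 5 and 10 (edgeR adjusted p = 0.18). INS, IGFBP1 and IGFBPL1 had no counts in any library, and INSRR and IGFALS had at most 3 in a library.

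**Figure D3:**
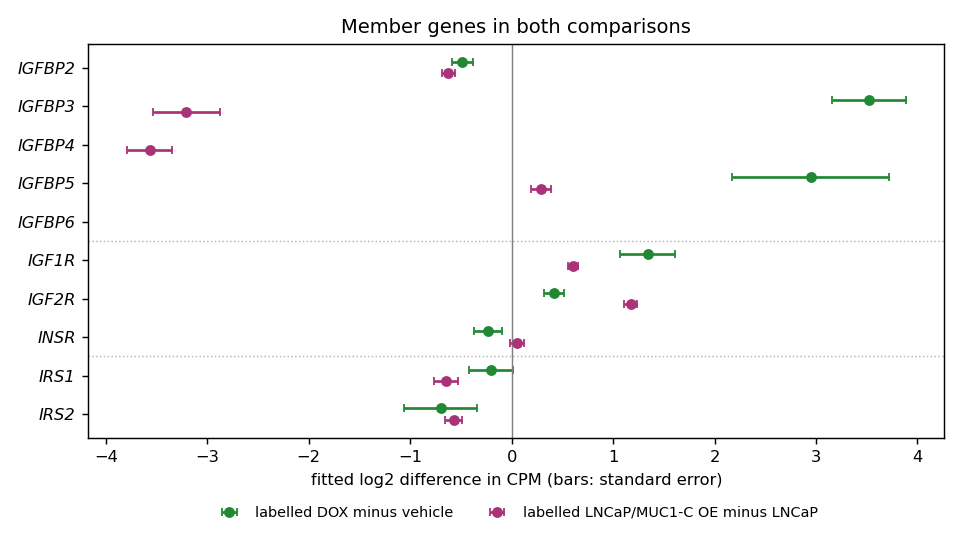
Fitted log2 difference in CPM of each member (horizontal axis, bars of 1 standard error) for libraries labelled DOX against vehicle in green and for libraries labelled LNCaP/MUC1-C OE against LNCaP in purple. IGFBP3 lies at 3.52 in the first comparison and at -3.21 in the second, and IGFBP4 in the first comparison and IGFBP6 in both are left out because their counts were too low. The directions of IGFBP5 in the first comparison and of IGFBP3 and IGFBP4 in the second followed from the filter on low counts.

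Levels per transcript length put the members in order within each group. The silencing experiment has deposited TPM values, and for the overexpression experiment the same gene lengths, read from the ratio of counts to TPM, were applied to its counts. The tables were normalised separately, so levels are set side by side between experiments and not tested. In vehicle IGF2R led at 28.5 ± 5.28 TPM (SD, n = 3), followed by IGFBP2 at 16.4 ± 1.41, IGF1R at 6.19 ± 1.06 and INSR at 4.92 ± 0.605. IGF1R and INSR overlapped in vehicle and did not differ beyond their spread. In the libraries labelled DOX, IGF2R led at 56.2 ± 13.3 TPM, IGF1R came next at 22.7 ± 4.64, overlapping IGFBP2 at 17.4 ± 3.48, and IGFBP3 followed at 7.89 ± 2.65, overlapping INSR at 6.37 ± 2.59.

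In the libraries labelled LNCaP the order was led by binding proteins. IGFBP2 was at 102 ± 4.97 TPM and IGFBP5 at 38.8 ± 3.13, above IGF1R at 21.1 ± 0.0659, IGF2R at 16.2 ± 1.29 and INSR at 12.4 ± 0.262. Among neighbours in that order, IGFBP3 (3.35 ± 0.292) and IRS1 (3.08 ± 0.236) overlapped. In the libraries labelled LNCaP/MUC1-C OE IGFBP2 (57.8 ± 3.07) and IGFBP5 (41.4 ± 5.74) still led, and IGF2R (31.9 ± 2.38) stood above IGF1R (27.95 ± 0.881). The ratio of IGF2R to IGF1R was 0.712 to 0.830 in the first group and 1.09 to 1.21 in the second. The ratio of IGF1R to INSR was 1.67 to 1.74 and 2.33 to 2.60, also without overlap.

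IGFBP5 stood far apart between the experiments, at 0.0125 ± 0.00919 TPM in vehicle and 38.8 ± 3.13 TPM in the libraries labelled LNCaP, although the labels name the same parental line. IRS2 exceeded IRS1 in every library of the overexpression experiment, with ratios of 2.73 to 3.16, and was below it in every library of the silencing experiment, with ratios of 0.335 to 0.831. IGF2R was the only one of the 10 members above IGF1R in every library of the silencing experiment and below it in every library labelled LNCaP.

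**Figure D4:**
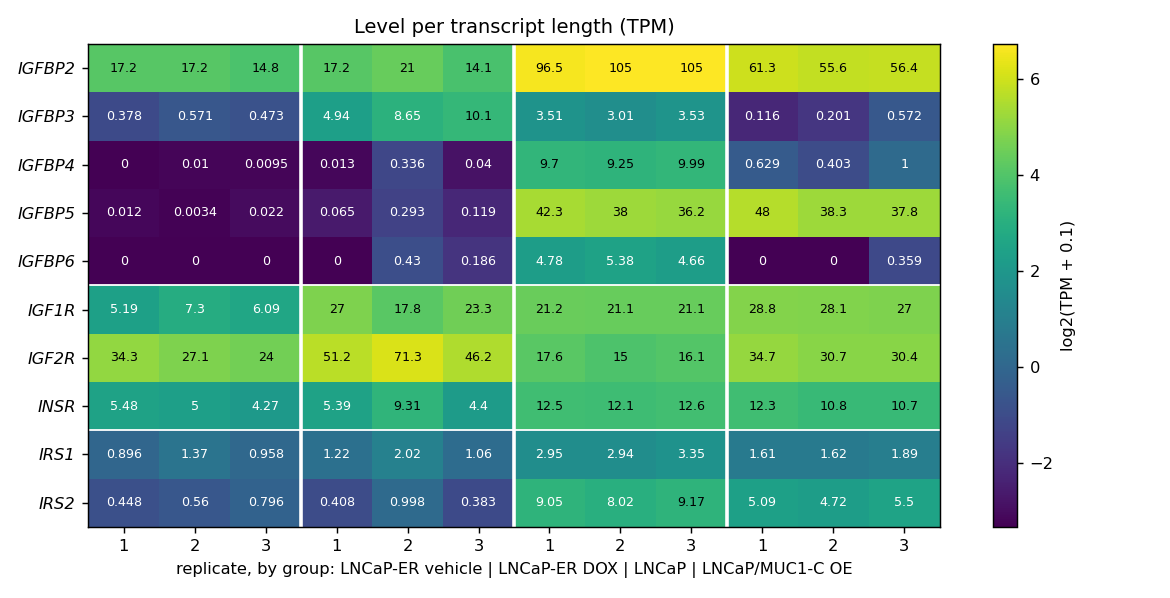
Level per transcript length of each member (rows) in each of the 12 libraries (columns, by group), with the TPM value printed in each cell and the colour giving log2(TPM + 0.1). Binding proteins lead in the overexpression experiment, with IGFBP2 at 55.6 TPM or more, and IGF2R leads in every library of the silencing experiment.

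The other genes of the pathway were taken from 6 lists written by role, 114 genes in all. In the silencing experiment 31 of the 100 tested passed the test, 13 higher and 18 lower, against 27.3% of all genes, with a median log2 difference of -0.09. By list, 3 of 9 ligands, other binding proteins and IGFBP proteases passed (1 higher, 2 lower), 7 of 20 adaptors and receptor inhibitors (5 higher, 2 lower), 12 of 33 PI3K-AKT-mTOR genes (4 higher, 8 lower), 3 of 18 RAS-ERK genes (1 higher, 2 lower), 5 of 18 FOXO factors and FOXO target genes (2 higher, 3 lower) and 1 of 2 IGF2 mRNA-binding proteins (lower). The count of 31 fell to 13 without vehicle replicate 3 or DOX replicate 3, to 16 without vehicle replicate 2 and to 18 without DOX replicate 1.

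The 5 pathway genes with the largest increases past the threshold, among those averaging 5 CPM or more whose groups did not overlap, came from several lists. PTPN1, a phosphatase of the insulin receptor, was at 64.5 to 70.6 CPM in vehicle and 142, 94.6 and 141 CPM in the libraries labelled DOX (log2 difference 0.92, SE 0.15, edgeR adjusted p = 0.0039). SOCS2, a suppressor of cytokine and growth hormone signalling, was at 8.72 to 16.4 CPM and 21.9 to 26.1 CPM (log2 difference 0.84, SE 0.22, edgeR adjusted p = 0.021). PIK3IP1, an inhibitor of PI3K, rose by 0.89 on the log2 scale, the ribosomal S6 kinase gene RPS6KB2 by 0.73 and the cyclin gene CCND1 by 0.48. PIK3IP1 and CCND1 each lost the call without vehicle replicate 2, vehicle replicate 3 or DOX replicate 3, and CCND1 also without DOX replicate 1. SOCS2 lost it without vehicle replicate 3, DOX replicate 1 or DOX replicate 3, with adjusted p from 0.052 to 0.054.

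The 5 with the largest decreases under the same rule were DUSP4, CCNG2, IGF2BP3, SESN3 and STC2. SESN3, a regulator of mTORC1 activity, was at 997, 792 and 877 CPM in vehicle and 300, 374 and 304 CPM in the libraries labelled DOX (log2 difference -1.45, SE 0.13, edgeR adjusted p = 4.20e-04). CCNG2, an atypical cyclin, was at 234 to 249 CPM and 77.3 to 93.8 CPM (log2 difference -1.53, SE 0.10, edgeR adjusted p = 1.14e-04). DUSP4, an ERK phosphatase, fell by 2.32 on the log2 scale (SE 0.40, edgeR adjusted p = 0.0043), with -3.01 without DOX replicate 2 and -2.01 without DOX replicate 3. STC2, an inhibitor of the IGFBP protease PAPPA, was at 107, 150 and 162 CPM in vehicle and 37.5, 97.1 and 38.6 CPM in the libraries labelled DOX (log2 difference -1.27, edgeR adjusted p = 0.026), a call lost without vehicle replicates 2 or 3 or DOX replicates 1 or 3. IGF2BP3, which binds IGF2 mRNA, was at 17.7 to 24.1 CPM and 6.38 to 8.29 CPM (log2 difference -1.49, SE 0.17), while IGF2BP1 had no counts in vehicle and 6, 41 and 6 in the libraries labelled DOX, and IGF2BP2 did not pass (log2 difference 1.32, SE 1.03, edgeR adjusted p = 0.37).

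Some pathway genes divided the libraries within groups, as IGF1R did. TXNIP, a glucose-responsive inhibitor of thioredoxin, was at 133, 15.7 and 17.6 CPM in vehicle and 196, 26.8 and 215 CPM in the libraries labelled DOX. DDIT4, an inhibitor of mTORC1, was at 93.9, 216 and 213 CPM in vehicle and 56.1, 155 and 64.7 CPM in the libraries labelled DOX. Vehicle replicate 1 and DOX replicate 2 were the libraries that departed from their groups in both genes, which did not pass the test and were named here after their values were seen.

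**Figure D5:**
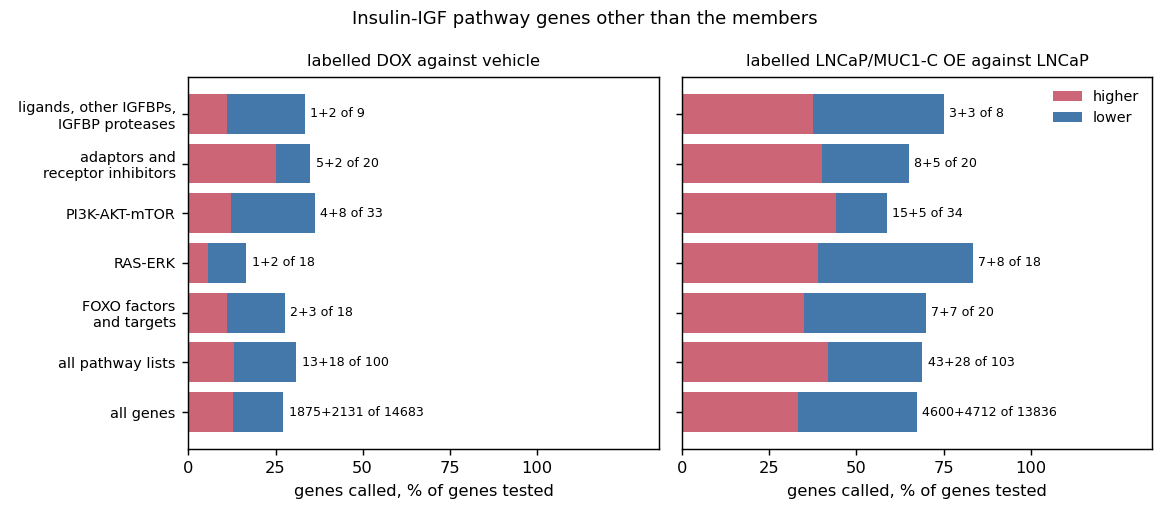
Share of tested genes past the threshold in each list of pathway genes other than the members (horizontal axis, percent), with higher genes in red and lower genes in blue and the counts beside each bar, for the silencing experiment on the left and the overexpression experiment on the right. All genes tested are in the lowest bar, at 27.3% and 67.3%.

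In the overexpression experiment 71 of 103 tested pathway genes passed, 43 higher and 28 lower, against 67.3% of all genes, with a median log2 difference of 0.06. With library size only the split was 26 higher and 45 lower, so the direction of the pathway genes as a group depended on the scaling. By list, 6 of 8 ligands, other binding proteins and IGFBP proteases passed (3 higher, 3 lower), 13 of 20 adaptors and receptor inhibitors (8 higher, 5 lower), 20 of 34 PI3K-AKT-mTOR genes (15 higher, 5 lower), 15 of 18 RAS-ERK genes (7 higher, 8 lower) and 14 of 20 FOXO factors and FOXO target genes (7 in each direction).

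All 3 IGF2 mRNA-binding proteins rose. IGF2BP1 was at 508 to 522 CPM in the libraries labelled LNCaP and 758 to 809 CPM in those labelled LNCaP/MUC1-C OE (log2 difference 0.61, SE 0.04), IGF2BP3 differed by 0.69 (SE 0.05) and IGF2BP2 by 0.25 (SE 0.06), and IGF2BP2 did not pass with library size only (log2 difference 0.10, edgeR adjusted p = 0.15). DDIT4 rose by 2.23 on the log2 scale (SE 0.24, edgeR adjusted p = 8.43e-04), the class II PI3K gene PIK3C2B by 1.89 (SE 0.08), TXNIP by 1.45 (SE 0.09) and the transcription factor gene FOXO4 by 0.97 (SE 0.07). ERBB3, a receptor that couples to PI3K, was at 14.5 to 16.7 CPM in the libraries labelled LNCaP and 4.01 to 4.67 CPM in the others (log2 difference -1.86, SE 0.12). HTRA1, a protease that cleaves IGF binding proteins, fell by 1.72 (SE 0.10), the adaptor gene DOK1 by 1.62 (SE 0.17), DUSP4 by 1.41 (SE 0.13) and STC1, a relative of STC2, by 1.32 (SE 0.13).

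The genes whose pattern over the 12 libraries was nearest to a member were found for the 3 members with the largest summed absolute log2 differences among those tested in both experiments. The search covered 9151 genes with a mean of at least 5 CPM in both experiments. Likeness was the Euclidean distance of log2 CPM after subtracting the mean of the control group of the same experiment, where 0 would be an identical pattern. Nearest to IGFBP3 were EGR1, an immediate-early transcription factor (distance 3.10, log2 differences 2.74 and -2.11 in the silencing and overexpression experiments), CDKN1A, an inhibitor of cyclin-dependent kinases (3.53, with 1.65 and -2.52) and RTN1 (3.54, with 1.63 and -3.50). Nearest to IGF1R were RHOU (0.47, with 1.26 and 0.78), ZNF385B (0.67, with 1.02 and 0.70) and FAM105A (0.75, with 0.91 and 0.69). Nearest to IGFBP5 were DTNA (1.95), TUBA1A (2.21) and QSOX1 (2.39). The limit of 5 CPM kept genes with a mean as low as that of IGFBP5 in the silencing experiment out of the search. Nothing about shared function or control follows from these distances.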

How the data were processed

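RNA-Seq was analysed in 4 groups of 3 libraries. The authors prepared stranded mRNA libraries and deposited raw counts per gene symbol for both experiments, and TPM for the silencing experiment. The submitters' processing notes list STAR, DESeq2, GRCh38 and hg38. The annotation, the strand setting of the counting and the gene lengths behind TPM are not given in the sources used here, so reads of IGF2R and IGFBP5 and of antisense genes that overlap them may not be separated. The overexpression table held 12 further columns of per-sample values that were not used.

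Each experiment was fitted separately with edgeR 4.0.16 in R 4.3.3 (TMM, filterByExpr, robust quasi-likelihood test, Benjamini-Hochberg adjustment over all genes tested, threshold 0.05), after the scripts were tested on simulated data. CPM values are TMM-normalised. Alternatives used DESeq2 1.42.0, limma 3.58.1 on log2(TPM + 1) or log2(TPM + 0.1), other scalings and filters, a replicate block and each library left out. Promoters came from RefSeq tables, where all 10 members matched. Counting intervals cover counting error only. The floor (3 counts) covers the counting error of the group without counts and not that of the other group.

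The members and lists were chosen with earlier results of these data known. Named were the members, MUC1, all ligands, other binding proteins, INSRR and IGF2BP genes, the 5 pathway genes with the largest change in each direction per comparison (adjusted p under 0.05, mean of at least 5 CPM, no overlap), and the 3 nearest patterns for 3 members. A gene that this rule covers is not reported here.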

Additional observations from a re-analysis of the deposited data

How the results depend on the processing

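With 3 libraries per group, few reads on several members and a library whose few MUC1 reads went against its label, the silencing comparison was the less stable. Leaving out each library in turn gave 2002 to 5243 genes past the threshold, with 2200 without vehicle replicate 2, 2002 without vehicle replicate 3, 2067 without DOX replicate 3 and 5243 without DOX replicate 2, against 4006 with all. It gave 3 to 6 members past it, with IGFBP3, IGF1R and IGFBP2 past it each time, and 13 to 45 pathway genes. The direction of each member past the threshold held in these fits. For MUC1 the log2 difference ranged from -1.83 without DOX replicate 2 to 0.62, against 0.12 with all libraries, and turned negative without vehicle replicate 2 (-0.09) or with the block (-0.62).

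Limma on log2(TPM + 1) called 5252 genes, 95.2% of them higher, and 3 members (IGFBP3, IGF1R and IGF2R), as did log2(TPM + 0.1) for the members (3). With no filter it called 1589 genes, 2 members and 12 pathway genes. IGFBP2 turned to 0.0693 with a pseudocount of 1, filtered or not, and to 0.0722 with 0.1, and IGF1 to 0.24 with a pseudocount of 1, filtered or not, and to 0.35 with 0.1. By construction those fits keep fewer members (6 filtered), and the cause of the overall shift was not tested. Scaling by library size only left 59.6% of called genes higher in the silencing comparison, against 46.8% with TMM.

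In the overexpression comparison, leaving out 1 library gave 8486 to 9512 genes, 8 to 9 members and 64 to 73 pathway genes, and no alternative reversed a member past the threshold. The requirement of 10 counts in every library left IGFBP3, IGFBP4 and IGFBP6 untested.

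The replicate numbers were not treated as pairs, because the labels name no shared batch. Deviations of same-numbered libraries correlated at 0.32, 0.18 and -0.22 in the silencing experiment. They correlated at 1.25e-05, -0.27 and -0.0052 in the overexpression experiment, and not every library correlated best with its own number. The deviations were taken from the mean of only 3 libraries, so these correlations cannot settle whether the samples were paired. With the replicate block, 4226 genes, 4 members and 37 pathway genes passed in the first and 8965, 9 and 70 in the second. Among members not past the threshold, INSR and IRS1 turned sign in some fits of the silencing comparison, as did INSR in the overexpression comparison.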

Other observations

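Marker lists of other cell kinds were read in the same libraries. The 10 neuroendocrine markers summed to 3.88 to 7.25 CPM in vehicle and to 7.398, 26.2 and 7.65 CPM in DOX replicates 1, 2 and 3. DOX replicate 2 stood apart through ENO2, at 18.8 CPM there. Neither ENO2 (edgeR adjusted p = 0.18) nor SYP (edgeR adjusted p = 0.083) passed. The same markers summed to 147 to 156 CPM in the libraries labelled LNCaP and 115 to 138 CPM in those labelled LNCaP/MUC1-C OE. ENO2 carried that lower sum (log2 difference -1.86), and CHGA, CHGB, INSM1 and SCG3 also fell, while NCAM1 (0.23) and SYP (0.36) rose. The 10 leukocyte and endothelial markers summed to 10.2 to 12.2 CPM in vehicle and 24.5 to 30.3 CPM in the libraries labelled DOX, and to 3.50 CPM at most in the overexpression experiment. CD68, a lysosomal protein of macrophages and other cells, carried the higher sum, at 6.59 CPM on average in vehicle and 21.8 CPM in the libraries labelled DOX (edgeR adjusted p = 4.62e-04). VWF did not pass (log2 difference -0.31, edgeR adjusted p = 0.60). PTPRC, CD14 and CD3E had no counts in vehicle and at most 19 in a library labelled DOX. KDR also had none in vehicle and had 10, 20 and 2 in the libraries labelled DOX, too few to be tested. The 15 mesenchymal markers summed to 236 to 243 CPM in vehicle and 123 to 149 CPM in the libraries labelled DOX. FN1, fibronectin, carried the lower sum, at 211 CPM on average in vehicle and 76.6 CPM in the libraries labelled DOX (edgeR adjusted p = 2.17e-04), while VIM rose from 5.31 to 32.9 CPM (edgeR adjusted p = 4.45e-04) and ACTA2 and TAGLN also rose.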
